A study of Eucalyptus nitens with 12 samples.

Results

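The genes described here are 314 abundant genes whose read count in low KPY trees was at most 50% of that in high KPY trees in both trials. They were drawn from the 12224 *E. grandis* gene identifiers that have a single transcript in each table of counts. They were chosen by measured values, the class means of their read counts. Counts were turned into CPM, a library's counts scaled to a common total, with TMM library sizes, which scale libraries so that most genes do not differ, and L was taken as log2 of the low KPY mean plus 0.1 CPM over the high KPY mean plus 0.1 CPM. A gene was kept when its high KPY mean was at least 100 CPM and L was -1 or lower in both trials. In all, 324 genes met these thresholds, and 10 of them belong to 26 genes that were left out by name. Because this contrast of low with high KPY selected the genes, each difference between the classes below is a description and carries no test.

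Kraft pulp yield (KPY) is the share of dry wood that remains as pulp after chemical removal of lignin. RNA came from scrapings of the cambial zone of *Eucalyptus nitens* trees labelled as 20 years old, growing untreated in the Florentine and Meunna trials, and each trial gave 3 low KPY and 3 high KPY libraries, 12 in all. Each library is a bulk of RNA from several trees at the extremes of KPY. In the study KPY and stem diameter were positively correlated in both trials, so low KPY trees were also the slower-growing ones, and KPY and growth cannot be told apart in these libraries.

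Wood cells arise in the cambium, enlarge, and then deposit a thick secondary wall of cellulose, xylan and lignin inside the primary wall. Cellulose is spun at the plasma membrane along tracks of microtubules, whereas xylan is assembled in the Golgi from sugar nucleotides and carried out in vesicles, and lignin is polymerized in the wall from monolignols oxidized by laccases. In Arabidopsis a tier of NAC and MYB transcription factors switches these pathways on together.

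Counts on the listed transcripts ranged from 44538273 to 53775708 per library in Florentine low KPY, from 45345079 to 45986808 in Florentine high KPY, from 49489614 to 70097142 in Meunna low KPY and from 75565811 to 89987549 in Meunna high KPY. At this depth the counting error of the 314 genes was small, since the smallest count of any of them in any library was 960 in Florentine and 170 in Meunna. For the scraped tissue, labelled xylem, 25 marker loci of Arabidopsis were looked up. Of these 4 were matched here: 1 of 5 for cambium, 2 of 4 for periderm, 1 of 3 for tracheary elements, 0 of 6 for phloem and 0 of 7 for green cells. Loci could be matched only through parts of the study's tables of called transcripts and alleles. A locus without a match therefore does not show that a cell type was absent. Most matched genes had passed a test on these samples before, so the lookup cannot serve as a check of the tissue. The summed level of the 4 matched periderm genes was 55.0 CPM in low KPY and 121 CPM in high KPY in Florentine, and 19.4 CPM in low KPY and 81.6 CPM in high KPY in Meunna. In Florentine Eucgr.J00364 differed from the other periderm genes, which were lower in low KPY. It had 2.08 to 7.87 CPM in low KPY and 1.61 to 4.19 CPM in high KPY there. The matched cambium gene, a D-type cyclin (CYCD3-1, Eucgr.F02302), had 8.53 to 17.5 CPM in low KPY and 27.5 to 35.4 CPM in high KPY in Florentine, and 8.97 to 13.7 CPM in low KPY and 18.3 to 31.0 CPM in high KPY in Meunna. XCP1 (Eucgr.F03589), a protease of maturing vessels, had 30.9 to 35.7 CPM in low KPY and 21.4 to 40.5 CPM in high KPY in Florentine, and 15.3 to 60.8 CPM in low KPY and 79.3 to 125 CPM in high KPY in Meunna. No matched marker was at 0 in any library, and their part in the results was not tested. In bulk RNA, fewer cells of a type and less RNA per cell cannot be told apart.

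The 314 genes took up 5.41% to 10.3% of all counts in Florentine low KPY libraries and 15.5% to 17.4% in Florentine high KPY libraries. In Meunna they took up 3.33% to 5.12% of counts in low KPY and 11.0% to 13.5% in high KPY. Means were 8.14% ± 2.50 and 16.6% ± 0.945 in Florentine low and high KPY, and 4.27% ± 0.898 and 12.0% ± 1.32 in Meunna low and high KPY (SD, n = 3 each). Every low KPY library thus held a smaller share than every high KPY library of its trial.

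**Figure D1:**
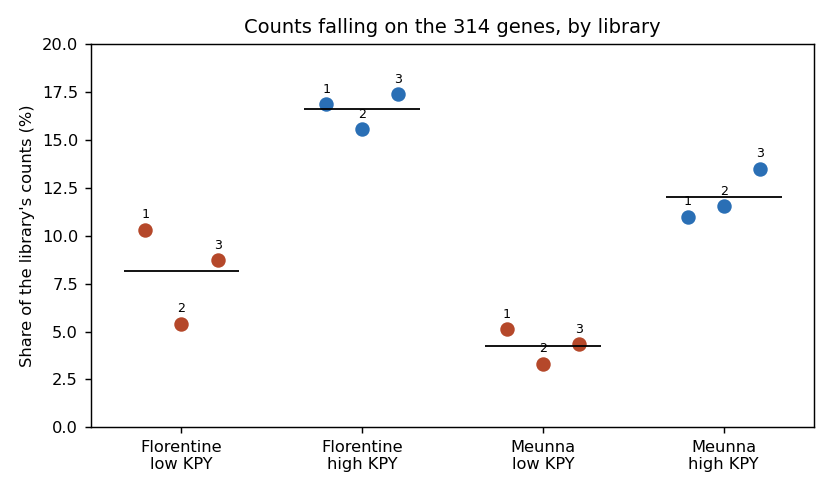
Share of each library's counts (y axis, percent) that fell on the 314 genes, by trial and KPY class (x axis); points are libraries with their replicate number and lines are class means. The Florentine low KPY libraries spread from 5.41% to 10.3%, and library 2 is the lowest of the low KPY class in both trials.

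The median of the 314 genes stood at 41.9% of the high KPY mean in Florentine low KPY and at 28.0% in Meunna low KPY. L ranged from -2.01 to -1.0 in Florentine with a median of -1.25, and from -4.03 to -1.01 in Meunna with a median of -1.83, whereas the median over all 12224 genes was 0.01 in Florentine and -0.07 in Meunna. A ratio of at least 4-fold was found for 1 gene in Florentine and 111 genes in Meunna. Of 1517 genes with at least 100 CPM in high KPY in both trials, 320 passed the limit on L in Florentine, 426 passed it in Meunna, 314 passed it in both, and 0 had an L of 1 or higher in both. TMM factors were 1.08 to 1.17 in low KPY and 0.857 to 0.946 in high KPY libraries over both trials, which lowers every ratio. With library sizes alone the median L of the 314 genes was -0.96 in Florentine and -1.53 in Meunna, and 126 of them still met the rule.

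By edgeR's quasi-likelihood test over all transcripts with Benjamini-Hochberg adjustment, 313 of the 314 were called lower in low KPY in Florentine, where 20% of all transcripts were called lower, and 310 in Meunna, where 16.9% were. All 3 low KPY libraries lay under all 3 high KPY libraries for 314 of the genes in Florentine and 313 in Meunna, against 29% and 26.7% of all transcripts. The rule used this contrast, and nothing is read from these counts. In Florentine they depended on the libraries used: edgeR called 86 of the 314 without low KPY library 3, 0 without high KPY library 1 and 0 without high KPY library 3. In these settings 308, 310 and 311 of the 314 had an unadjusted p under 0.05, and without either high KPY library 0 of all 23917 transcripts were called. DESeq2 called 313 in each of these settings.

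The genes nearest to the limits show what the rule separated. ACT7, an actin (Eucgr.I00241), was just inside the limit on L with means of 755 CPM in low KPY and 1511 CPM in high KPY in Florentine, and Eucgr.I00289, annotated like COV 2, was next with 94.5 CPM in low KPY and 189 CPM in high KPY. Just outside, Eucgr.I01758, a glycosyltransferase-family gene, had means of 129 CPM in low KPY and 258 CPM in high KPY in Florentine, and Eucgr.I02712 had 83.7 CPM in low KPY and 167 CPM in high KPY. At the limit on level, Eucgr.B00644 and Eucgr.H02279 were inside with high KPY means of 101 and 102 CPM in Meunna. Eucgr.A00105 was outside with 99.96 CPM in Meunna high KPY and Eucgr.E03909 with 98.9 CPM in Florentine high KPY.

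**Figure D2:**
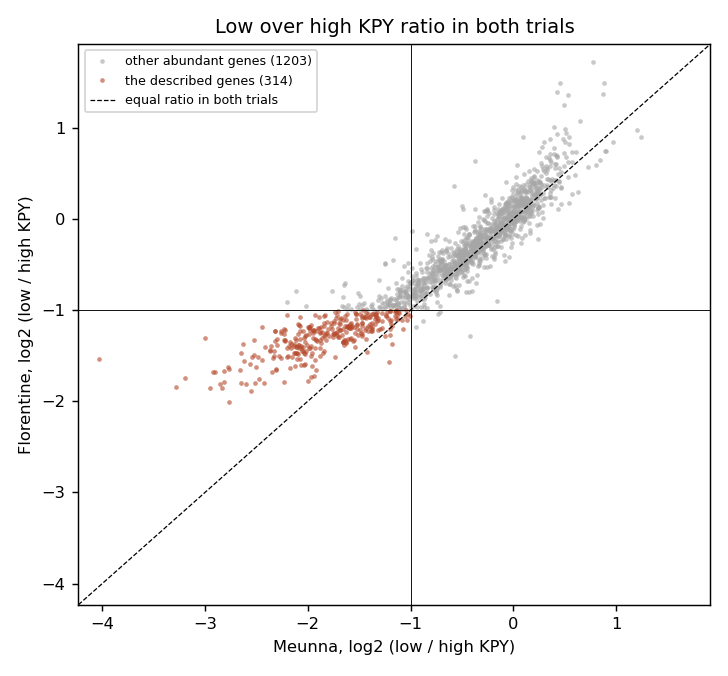
L in Meunna (x axis) against L in Florentine (y axis), both log2 of low over high KPY, for 1517 abundant genes; the 314 described genes are coloured, thin lines mark -1 and the dashed line marks equal ratios. The described genes lie below -1 on both axes by the rule, and 302 of them have the lower ratio in Meunna.

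The low KPY libraries of a trial did not carry the difference equally. The rule used class means, so a low value in a single low KPY library helped a gene to pass. The order of the libraries, also beside other abundant genes, is thus a description that is not independent of the rule. In Florentine the median gene stood at 54.1%, 25.4% and 44.1% of the high KPY mean in low KPY libraries 1, 2 and 3. All 314 genes were lowest in low KPY library 2, and 296 were highest in library 1. At or under 50% of the high KPY mean were 89 genes in library 1, 314 in library 2 and 264 in library 3. In Meunna the median gene stood at 34.8%, 22.0% and 28.4%, library 2 was lowest for 263 genes, and 301, 312 and 303 genes were at or under 50%. Among the 1203 other abundant genes library 2 was the lowest of the low KPY class for 57.0% in Florentine and 47.0% in Meunna, and its median log2 distance from the class mean was -0.06 and -0.04, against -0.68 and -0.38 for the 314 genes. In the high KPY class of Florentine library 2 was also lowest for 251 of the 314 genes (79.9%), against 42.7% of the other abundant genes, with a median log2 distance from the class mean of -0.14 against -0.01. In Meunna high KPY it was library 1 that was lowest for 251 genes, and library 2 for 50. Without Florentine low KPY library 2 the rule kept 159 genes, all among the 314, and the median L in Florentine became -1.0. Library numbers name bulks only and do not link the trials.

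The spread between replicate libraries was wider for these genes than for other abundant genes in every class. The median SD of log2 CPM was 0.56 in Florentine low KPY, 0.14 in Florentine high KPY, 0.37 in Meunna low KPY and 0.24 in Meunna high KPY for the 314 genes. For the 1203 other abundant genes it was 0.13, 0.09, 0.15 and 0.12 in the same order of classes. The gap between the sets was widest in Florentine low KPY. The same library values gave the class means that chose the 314 genes, and the other abundant genes were not matched to them in level. This comparison of spread is thus a description that is not independent of the rule.

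**Figure D3:**
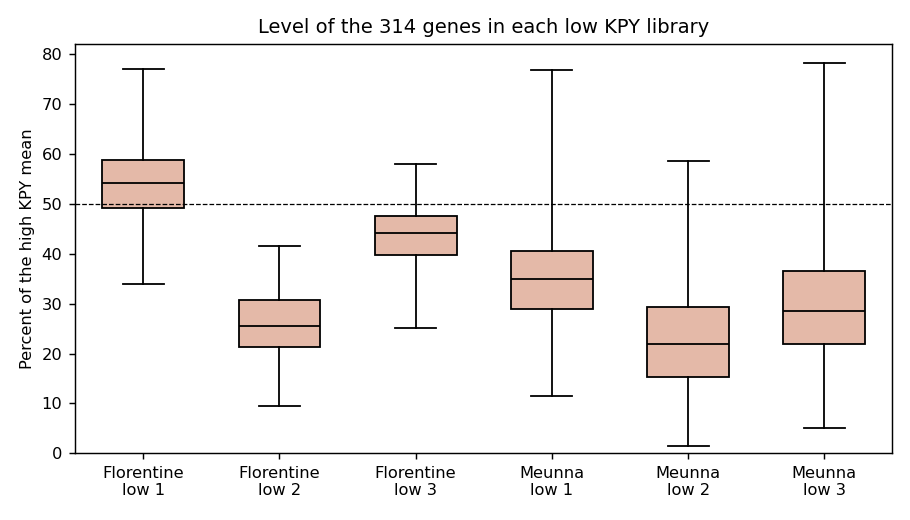
Level of the 314 genes in each low KPY library as a percent of the gene's mean in the high KPY libraries of its trial (y axis); boxes span the quartiles, the line is the median and whiskers reach the lowest and highest gene, with a dashed line at 50%. The medians are 54.1%, 25.4% and 44.1% in Florentine and 34.8%, 22.0% and 28.4% in Meunna.

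Of the 314 genes, 309 were matched to an Arabidopsis protein and 146 of these stand on 10 lists of roles. The lists were chosen with earlier results of these data known, so the number of genes on a list is a description only. CPM are not divided by transcript length, so levels are compared between libraries of a gene and not between genes. Where 2 or more of the genes were matched to one Arabidopsis protein, which holds for 44 genes and 21 proteins, reads may be shared between close copies and the split between them is uncertain. Gene names below are those of the Arabidopsis match.

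Xylan genes made up 19 of the 314, with a median of 37.7% of the high KPY level in Florentine low KPY and 22.7% in Meunna low KPY. Sugar nucleotide supply had 5 genes, at 34.9% to 49.3% in Florentine and 17.8% to 39.8% in Meunna: UGD3, which oxidizes UDP-glucose to UDP-glucuronate, UXS1 (2 genes) and UXS6, which make UDP-xylose, and UXT1, which carries it into the Golgi. The UGD3 gene (Eucgr.J01372) had 1261, 479 and 964 CPM in Florentine low KPY, against 2547, 2316 and 2698 CPM in Florentine high KPY, and 549.9, 259 and 569.7 CPM in Meunna low KPY, against 1501, 1784 and 2332 CPM in Meunna high KPY. The low KPY libraries stayed under all high KPY libraries in both trials, with library 2 the lowest. UXS6 (Eucgr.J00040) stood at 42.2% of its high KPY level in Florentine and 30.4% in Meunna.

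The xylan backbone genes IRX9, IRX10L and IRX14L, glycosyltransferases, stood at 36.7% to 37.7% in Florentine and 18.7% to 23% in Meunna. FRA8, IRX8 and PARVUS, which are needed for the sequence at the reducing end, stood at 38.0% to 48.0% and 22.7% to 28.0%, and the IRX15L genes (2) at 35.0% to 39.8% and 21.6% to 26.3%. GUX2 adds glucuronic acid side chains and GXM1 methylates them. GXM1 (Eucgr.I02784) had 741, 378 and 641 CPM in Florentine low KPY, against 1631, 1569 and 1667 CPM in high KPY, and 297, 206 and 219 CPM in Meunna low KPY, against 917, 979 and 1070.5 CPM in high KPY. Acetylation was represented by 4 genes, RWA1, TBL3, TBL29 and TBL33, at 28.5% to 40.5% in Florentine and 13.8% to 24.3% in Meunna, the range that reached lowest on this list. TBL33 (Eucgr.J00170), an acetyltransferase-family gene, had 699, 324 and 725 CPM in Florentine low KPY, against 2151, 1555 and 2189.8 CPM in high KPY, and 244, 119 and 144 CPM in Meunna low KPY, against 839, 961 and 1022 CPM in high KPY. RWA1 (Eucgr.D00335) stood at 40.5% in Florentine and 24.3% in Meunna.

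Cellulose was represented by 8 genes, with medians of 38.7% in Florentine low KPY and 29.1% in Meunna low KPY. Both sucrose synthases, SUS1 and SUS4, which split sucrose and so provide UDP-glucose, stood near 31% to 32% in Florentine and 20% in Meunna. SUS1 (Eucgr.C03199) had 2374, 643 and 1562 CPM in Florentine low KPY, against 5029, 4513 and 5086 CPM in high KPY, and 755, 314 and 684 CPM in Meunna low KPY, against 2103, 3104 and 3730.0 CPM in high KPY. In Florentine low KPY its highest and lowest libraries thus differed more than 3-fold. SUS4 (Eucgr.C00769) had 479.8, 197 and 413 CPM in Florentine low KPY, against 1378, 1017 and 1054 CPM in high KPY, and 205, 95.4 and 183 CPM in Meunna low KPY, against 750.2, 701 and 948 CPM in high KPY.

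CTL2 (Eucgr.H04034), a chitinase-like protein needed for cellulose deposition in Arabidopsis, had 2850.1, 1575 and 2725 CPM in Florentine low KPY, against 6629, 5789 and 6632 CPM in high KPY, and 1165, 904 and 706 CPM in Meunna low KPY, against 3466, 3349 and 3789 CPM in high KPY. In Meunna low KPY library 3, and not library 2, was its lowest. KOR1 (Eucgr.G00035), a membrane endoglucanase of cellulose synthesis, stood at 39.9% in Florentine and 34.2% in Meunna. CSI1 (Eucgr.I00378), which ties cellulose synthase complexes to microtubules, stood at 39.8% and 32%. The remaining cellulose genes were COBL4 (Eucgr.J01392), a GPI-anchored protein of secondary walls, at 34.7% and 19.8%, KOBITO1 (Eucgr.G03264) at 42.9% and 36.7%, and CESA2 (Eucgr.I00286), a cellulose synthase of primary walls, at 46.8% and 46.0%, the weakest difference on the list in both trials.

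Lignin genes numbered 7, of which 5 were laccases. Their median was 44.5% in Florentine low KPY and 23.5% in Meunna low KPY. LAC4 (Eucgr.K02996) had 391, 185 and 357 CPM in Florentine low KPY, against 732, 568 and 652 CPM in high KPY, and 289, 124 and 181 CPM in Meunna low KPY, against 673, 757 and 695 CPM in high KPY. LAC17 was matched by a pair of genes that differed in their ratios. Eucgr.A01282 had 369, 172 and 327 CPM in Florentine low KPY, against 735, 621 and 733 CPM in high KPY, and 183, 94.9 and 104 CPM in Meunna low KPY, against 465, 607 and 568 CPM in high KPY. Eucgr.K03111 had 187, 49.1 and 138 CPM in Florentine low KPY, against 469.8, 412 and 471 CPM in high KPY, and 56.2, 12.2 and 41.1 CPM in Meunna low KPY, against 222, 269 and 361 CPM in high KPY. With 27.7% and 12.9% of the high KPY level, Eucgr.K03111 was among the 5 genes with the lowest L in both trials.

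HCT makes monolignol precursors at the shikimate ester step. HCT (Eucgr.J03126) had 288, 169 and 252 CPM in Florentine low KPY, against 546, 491 and 553 CPM in high KPY, and 139.7, 69.9 and 118 CPM in Meunna low KPY, against 485, 468 and 443 CPM in high KPY. It stood at 44.5% of its high KPY level in Florentine and 23.5% in Meunna, and library 2 was the lowest of the low KPY class in both trials.

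Methylation of xylan and lignin draws on S-adenosylmethionine, and 10 of the 314 genes belong to its supply and recycling, with medians of 43.9% in Florentine low KPY and 30.8% in Meunna low KPY. They were SAM synthetases (3 genes), SAH hydrolases (2), subunits of glycine decarboxylase (3), SHM4 and MTHFR2. SAM2 (Eucgr.A01021) had 2069.6, 1219.9 and 1987 CPM in Florentine low KPY, against 4575, 4089.7 and 4241 CPM in high KPY, and 1148, 703 and 842 CPM in Meunna low KPY, against 2873, 2725 and 3163 CPM in high KPY. Another SAM2 gene, Eucgr.H04112, stood at 46.3% in Florentine and 48.8% in Meunna and was 1 of only 12 genes of the 314 with the lower ratio in Florentine. SAHH1 (Eucgr.H02678), which clears the product of methyl transfer, had 1314, 809.6 and 1306 CPM in Florentine low KPY, against 2649, 2596 and 2491 CPM in high KPY, and 767, 421 and 704 CPM in Meunna low KPY, against 1838, 1858 and 2058 CPM in high KPY. SHM4 (Eucgr.H02679), which makes one-carbon units from serine, bears the next identifier and stood at 41.1% in Florentine and 28.0% in Meunna, against 44.3% and 32.9% for Eucgr.H02678. This was 1 of 7 pairs among the 314 genes with consecutive identifiers. SAM1 (Eucgr.K00588) stood at 48.4% and 37.4%, and the other SAHH1 gene (Eucgr.D00281) at 48.6% and 34.5%.

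Microtubule genes were the largest list with 34 members, whose medians were 41.4% in Florentine low KPY and 26.0% in Meunna low KPY. They held 8 tubulins, 8 kinesins, 8 microtubule-associated proteins such as MAP65-1, TORTIFOLIA1 and CLASP, 4 IQ-domain proteins, 5 regulators or effectors of ROP GTPases, which pattern microtubules and pits in xylem cells, and 1 kinesin light chain-related gene. The beta-tubulins (5 genes) stood at 28.8% to 39.6% in Florentine and 15.9% to 33.9% in Meunna, and the alpha-tubulins (3 genes) at 37.4% to 45.2% and 23.8% to 35.9%. TUB8 (Eucgr.K00264) had 2100.5, 937 and 1596 CPM in Florentine low KPY, against 4774, 4320.1 and 5053 CPM in high KPY, and 785, 562 and 735 CPM in Meunna low KPY, against 2282, 2645 and 3178 CPM in high KPY. TUB3 (Eucgr.D01847) stood lowest of the tubulins, with 961, 461 and 899 CPM in Florentine low KPY, against 2659, 2669 and 2726 CPM in high KPY, and 259, 154 and 139.7 CPM in Meunna low KPY, against 1044, 1116 and 1316 CPM in high KPY. TUA6 (Eucgr.F00470) had 3379, 2005 and 3192 CPM in Florentine low KPY, against 6365, 6068 and 6531 CPM in high KPY, and 1524, 1187 and 1144 CPM in Meunna low KPY, against 3173, 3355 and 4196 CPM in high KPY. TUA5 (Eucgr.B03604) was the tubulin whose ratios in the trials lay closest, at 37.8% and 34.5%.

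IQD13 (Eucgr.H00308), a microtubule-binding protein that shapes xylem pits in Arabidopsis, had 1777, 751 and 1365 CPM in Florentine low KPY, against 3663, 2909.6 and 3688 CPM in high KPY, and 622, 330.4 and 496 CPM in Meunna low KPY, against 1732, 1743 and 2208 CPM in high KPY. The kinesins stood at 35.2% to 48.7% in Florentine and 15.9% to 38.6% in Meunna. Genes of ROP signalling stood at 40.1% to 48.1% in Florentine and 20.3% to 30.5% in Meunna. RIC4 (Eucgr.H01387), a ROP effector, had 87.4, 37.4 and 72.8 CPM in Florentine low KPY, against 149, 106 and 155 CPM in high KPY, and 40.6, 23 and 28.2 CPM in Meunna low KPY, against 134, 130.2 and 160.0 CPM in high KPY.

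Actin and vesicle genes numbered 27, with the weakest median ratio of the lists in Meunna, 33.2% in low KPY, beside 44.2% in Florentine low KPY. Clathrin, dynamin-related and epsin-like genes (5), which bud vesicles, stood at 35.3% to 48.5% in Florentine and 19.8% to 37.9% in Meunna. The SEC24 gene (Eucgr.D01413), which builds the coat of vesicles leaving the endoplasmic reticulum, had 510.1, 316 and 470.2 CPM in Florentine low KPY, against 921, 1021 and 1273 CPM in high KPY, and 769.6, 391 and 462 CPM in Meunna low KPY, against 1249, 1401 and 2194 CPM in high KPY. Clathrin heavy chain CHC1 (Eucgr.J00193) stood at 45.0% in Florentine and 37.9% in Meunna. The TMN genes (4), endomembrane proteins, stood at 39.2% to 46.3% and 30.8% to 38.7%, with Eucgr.C02604 at 42.8% and 38.7% and Eucgr.C00422 at 39.2% and 31.7%. Profilin PRF5 (Eucgr.C00615), which binds actin monomers, had nearly one ratio in both trials, 47.9% in Florentine and 48.1% in Meunna. The actin ACT7 (Eucgr.I00241), just inside the limit on L, is not on this list. Its low and high KPY means were 755 and 1511 CPM in Florentine, and 497 and 1093 CPM in Meunna. ACT3 was matched by 3 genes that spread from 24.8% to 40.0% in Florentine and from 14.6% to 32.9% in Meunna. The lowest of them, Eucgr.K01841, had 124, 29.4 and 78.4 CPM in Florentine low KPY, against 273, 300.3 and 363 CPM in high KPY, and 46.3, 14.7 and 30.2 CPM in Meunna low KPY, against 128, 202 and 294 CPM in high KPY, and it was the single gene with a ratio of 4-fold or more in Florentine.

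**Figure D4:**
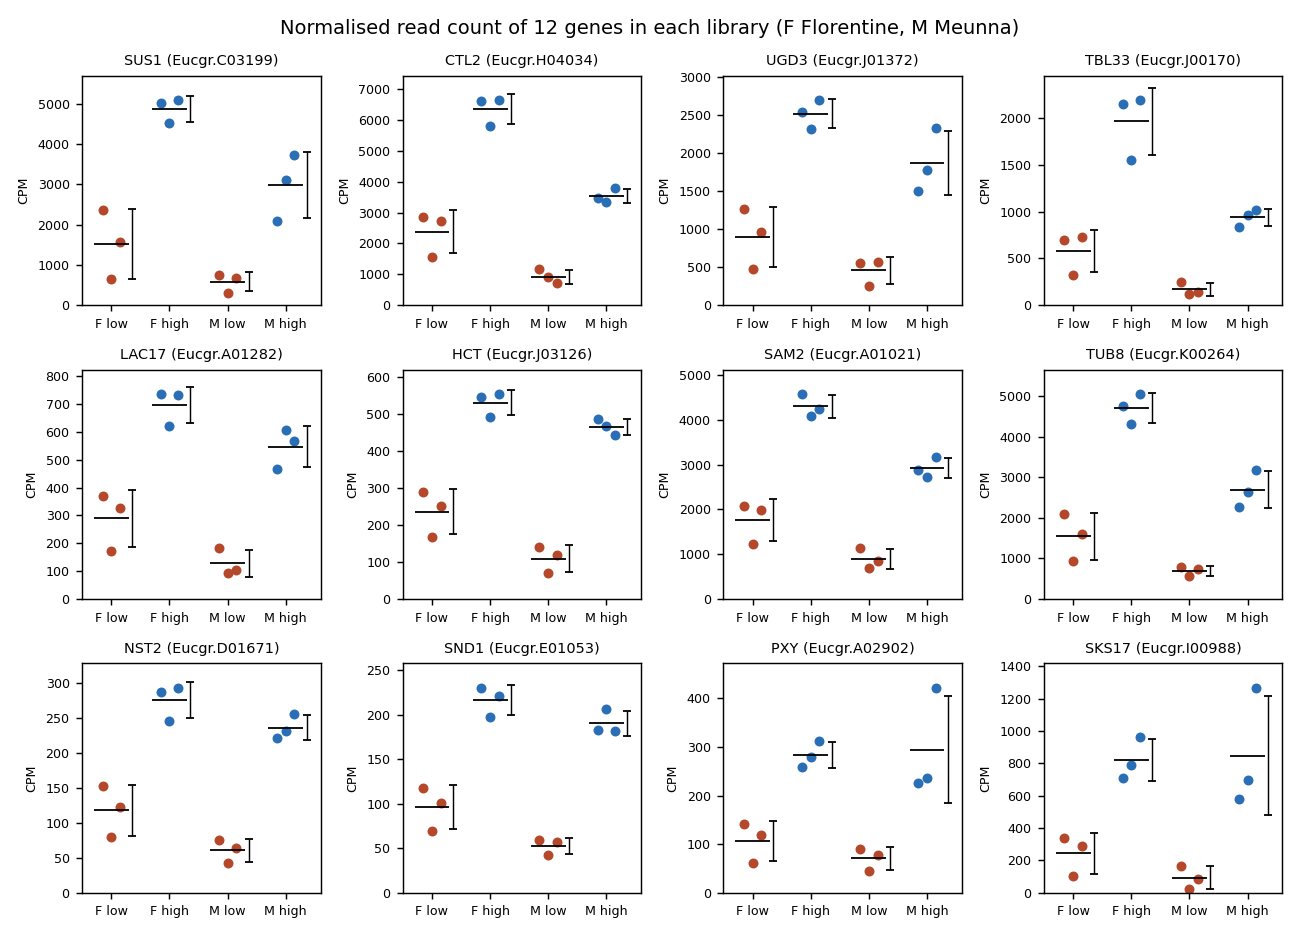
Normalised read count (y axis, CPM, starting at 0) of 12 of the genes in each library of Florentine (F) and Meunna (M) low and high KPY (x axis); points are libraries 1 to 3 from left to right, lines are means and bars are SD (n = 3). In each panel the 3 low KPY libraries lie under the 3 high KPY libraries of the same trial, for SUS1 between 643 and 2374 CPM against 4513 to 5086 CPM in Florentine.

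Regulators numbered 9 of the 314, with medians of 41.7% in Florentine low KPY and 27.5% in Meunna low KPY. SND1, NST2 and VND1 are NAC factors that switch on secondary wall genes in Arabidopsis, SND1 and NST2 in fibres and other thickened cells and VND1 in vessels, and MYB46 acts directly below them. SND1 (Eucgr.E01053) had 118, 69.3 and 101 CPM in Florentine low KPY, against 229.9, 197 and 221 CPM in high KPY, and 59.1, 42.5 and 57.0 CPM in Meunna low KPY, against 182, 207 and 181 CPM in high KPY. NST2 (Eucgr.D01671) had 152, 79.3 and 123 CPM in Florentine low KPY, against 288, 247 and 293 CPM in high KPY, and 75.7, 42.9 and 64.6 CPM in Meunna low KPY, against 222, 232 and 257 CPM in high KPY. The 3 NAC genes lay close together, at 41.3% to 44.4% in Florentine and 25.8% to 30.3% in Meunna. MYB46 (Eucgr.B03684) stood at 41.7% and 29.5% and MYB61 (Eucgr.A00996) at 44.9% and 43.8%. C3H14 (Eucgr.F02796), a zinc finger protein that acts on wall genes, stood lowest of the regulators in both trials, at 31.5% in Florentine and 14.2% in Meunna. WLIM1 (Eucgr.F02243), a LIM-domain protein, stood at 33.2% and 24.6%, BLH7 (Eucgr.I01293), a homeodomain protein, at 42.3% and 27.5%, and BME3 (Eucgr.G02840), a GATA factor, at 32.1% and 22.2%.

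Other genes of the wall matrix numbered 16, with medians of 38.2% in Florentine low KPY and 24.0% in Meunna low KPY. XTH9 (Eucgr.K00883), which cuts and rejoins xyloglucan, had 891, 435 and 697 CPM in Florentine low KPY, against 1576, 2045 and 1895 CPM in high KPY, and 660.1, 275 and 295 CPM in Meunna low KPY, against 1366, 1444 and 2184 CPM in high KPY. The fasciclin-like arabinogalactan proteins FLA7, FLA11 and FLA16 stood at 36.5% to 42.7% in Florentine and 20.3% to 24.1% in Meunna. FLA11 (Eucgr.A01158), which is tied to secondary wall stiffness in stems, had 357, 156 and 283 CPM in Florentine low KPY, against 712, 533 and 831 CPM in high KPY, and 154, 99.5 and 116 CPM in Meunna low KPY, against 488, 666 and 667 CPM in high KPY. SKS17 (Eucgr.I00988), of a family like multicopper oxidases, had 341, 101 and 291 CPM in Florentine low KPY, against 711, 787 and 960.3 CPM in high KPY, and 168, 25 and 84.6 CPM in Meunna low KPY, against 582, 696 and 1265 CPM in high KPY. Its Meunna low KPY libraries differed by more than 6-fold among themselves. BXL2 (Eucgr.H01055), a beta-xylosidase, had 136, 42.9 and 97.2 CPM in Florentine low KPY, against 332, 297 and 372 CPM in high KPY, and 53.2, 12.2 and 46.8 CPM in Meunna low KPY, against 176, 201 and 423 CPM in high KPY. CSLA9 (Eucgr.A01559), a glucomannan synthase, stood at 41.4% and 35.1%, and GH9B5 (Eucgr.F01640), an endoglucanase-family gene, at 38.3% and 32%.

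Water and proton transport was represented by 7 genes, with medians of 39.3% in Florentine low KPY and 29.8% in Meunna low KPY. PIP1C (Eucgr.D01836), an aquaporin of the plasma membrane, had 1424, 732 and 1431 CPM in Florentine low KPY, against 3122, 3151 and 3279 CPM in high KPY, and 685, 506 and 382 CPM in Meunna low KPY, against 1898, 1773 and 2538 CPM in high KPY. Another aquaporin, PIP2-7 (Eucgr.I01429), stood at 39.2% and 22.1%. AVP1, a proton pump driven by pyrophosphate, was matched by 3 genes at 35.1% to 49.7% in Florentine and 29.8% to 43.5% in Meunna. The tonoplast sugar carrier TMT2 (Eucgr.G01880) stood at 39.3% and 31.8%.

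Receptors and signalling genes numbered 9, with medians of 37.6% in Florentine low KPY and 25.2% in Meunna low KPY. PXY (Eucgr.A02902), the receptor that keeps cambial cells dividing in Arabidopsis, had 141, 60.6 and 119 CPM in Florentine low KPY, against 259.5, 279.7 and 311 CPM in high KPY, and 90.8, 44.9 and 78.1 CPM in Meunna low KPY, against 225, 236 and 421 CPM in high KPY. Its highest Meunna value came from high KPY library 3, the library with the highest share of counts on the 314 genes in that class. RKL1 (Eucgr.H00539), a receptor-like kinase, stood lowest on this list at 31.7% and 15.8%. ACO4 (Eucgr.D01368), which catalyses the last step of ethylene synthesis, had 259, 159 and 348 CPM in Florentine low KPY, against 824, 622 and 800.3 CPM in high KPY, and 165, 132 and 103 CPM in Meunna low KPY, against 452, 609 and 462 CPM in high KPY. In Florentine low KPY its lowest library was 2, as for all of the 314 genes, and its highest was 3, as for 18 of them. TMK1, a kinase of auxin signalling, was matched by 2 genes, of which Eucgr.B02699 stood at 47.3% and 38.0%, and PLC2 (Eucgr.G03056), a phospholipase, at 43.1% and 25.5%.

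**Figure D5:**
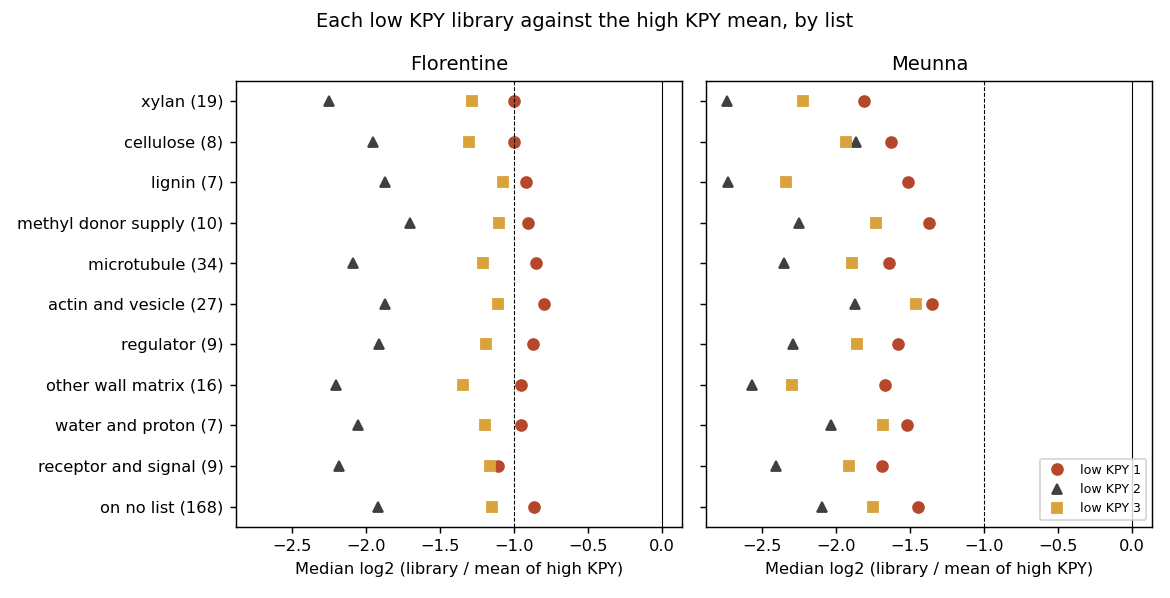
Median log2 ratio of each low KPY library to the mean of the high KPY libraries of its trial (x axis) for the genes of each role list and those on no list (y axis, with the number of genes); symbols mark low KPY libraries 1 to 3, and dashed lines mark -1. In Florentine library 2 lies left of libraries 1 and 3 in every row, and in Meunna in every row except cellulose.

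The other 168 genes stand on no list, and 5 of the 314 have no Arabidopsis match. Leucine-rich repeat kinases with no name of their own formed the largest group here with 9 genes, whose L ranged from -1.79 to -1.19 in Florentine and from -2.81 to -1.55 in Meunna. O-fucosyltransferase-family genes, which glycosylate proteins or wall polymers, numbered 4, with L of -1.41 to -1.03 in Florentine and -2.32 to -1.11 in Meunna. Lipid-transfer family genes numbered 3 and reached the lowest L of all in Meunna, with L of -1.53 to -1.22 in Florentine and -4.03 to -2.22 in Meunna. One of them, Eucgr.F03514, had 60.6, 19.5 and 45.6 CPM in Florentine low KPY, against 119.7, 126 and 118 CPM in high KPY, and 18.2, 2.36 and 8.16 CPM in Meunna low KPY, against 129, 126 and 219 CPM in high KPY. Eucgr.E00448, of the same family, had 63.3, 42.9 and 88.6 CPM in Florentine low KPY, against 158, 161 and 162 CPM in high KPY, and 32.1, 5.71 and 29.9 CPM in Meunna low KPY, against 139, 182 and 222 CPM in high KPY. The matrixin-family gene Eucgr.D02504, a metalloprotease, was among the 5 lowest in both trials at 27.8% and 10.2%. Eucgr.C00653, of unknown function, stood at 27.0% in Florentine, among the 5 lowest there, and at 17.0% in Meunna. In 39 of the 314 genes the matched protein is annotated as unknown.

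A few genes were named after their values were seen. ATP-citrate lyase, which makes cytosolic acetyl-CoA from an A and a B subunit, was matched by 3 genes, at 40.2% to 44.4% in Florentine and 23.7% to 44.2% in Meunna. Of these Eucgr.H04045 had the lowest ratio in Meunna, with an L of -2.08. The A subunit gene Eucgr.B03307 had 126, 54.2 and 102 CPM in Florentine low KPY, against 243, 195 and 247 CPM in high KPY, and 60.6, 28.2 and 133 CPM in Meunna low KPY, against 133, 172 and 207 CPM in high KPY, and was the single gene of the 314 whose classes overlapped in Meunna. A B subunit gene, Eucgr.I00055, had 72.6, 37.6 and 128 CPM in Meunna low KPY, against 129, 183 and 227 CPM in high KPY. Library 3 was thus the highest of the Meunna low KPY class for Eucgr.B03307 and Eucgr.I00055. These genes, the thaumatin-family gene Eucgr.B00944 and Eucgr.F01847, which has no match, were the 4 not called in Meunna by edgeR's quasi-likelihood test, at adjusted p of 0.124, 0.0851, 0.055 and 0.147. The expansin EXPA6 gene Eucgr.J02048, with 85.4, 16.3 and 36.7 CPM in Florentine low KPY, against 99.6, 99.5 and 133 CPM in high KPY, was the 1 not called in Florentine, at an adjusted p of 0.11.

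Whether the difference between the KPY classes itself differed between the trials was tested as the trial by KPY interaction, by edgeR's quasi-likelihood test over 12224 genes. None of the 314 was called, and 0% of all genes were: 0 of 314 and 0 of 12224 at an adjusted threshold of 0.05, with an unadjusted p under 0.05 for 16 of the 314 and 790 of all. DESeq2 called 0 of the 314 and 65 of 12216 genes. The interaction log2, Florentine minus Meunna, was positive for 295 of the 314 and for 62.4% of all genes, with medians of 0.46 and 0.08. The rule had set a limit on the ratio of each trial, and all genes are not matched to the 314 in level or ratio. These shares and medians are therefore a description only. It ranged from -0.44 to 2.42 among the 314, with standard errors from 0.17 to 0.85 and a median standard error of 0.37. When 1 library was left out, between 3 and 146 of the 314 had an unadjusted p under 0.05, the highest number without Florentine low KPY library 2, and still 0 were called.

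The smallest interaction p of the 314 belonged to Eucgr.K00658, an auxin-responsive family gene, with 244, 138 and 192 CPM in Florentine low KPY, against 440.3, 424 and 487 CPM in high KPY, and 70.8, 39.4 and 56.5 CPM in Meunna low KPY, against 223, 274 and 336 CPM in high KPY. Its interaction log2 was 1.01 ± 0.33 (SE), with an adjusted p of 0.658 by edgeR's quasi-likelihood test. Next came the lipid-transfer gene Eucgr.F03514, at 2.42 ± 0.83 with an adjusted p of 0.701, the RING/U-box gene Eucgr.B00047, at 0.63 ± 0.22 with 0.713, the glycosyl hydrolase gene Eucgr.A01823, at 0.94 ± 0.35 with 0.716, and RIC4 (Eucgr.H01387), at 1.07 ± 0.41 with 0.748. HCT (Eucgr.J03126), at 0.86 ± 0.34, and SND1 (Eucgr.E01053), at 0.61 ± 0.25, had adjusted p of 0.765 each. All of these values were positive, which means a smaller difference between the classes in Florentine, and none passed the test.

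Levels of the 314 genes were also set beside each other across trials on joint TMM library sizes. Florentine exceeded Meunna for 309 of them in low KPY and 299 in high KPY, against 54.1% and 48% of all genes. The median log2 of Florentine over Meunna was 1.00 in low KPY and 0.57 in high KPY, against 0.04 and -0.02 over all genes. The rule used the class levels of both trials, and no set of genes matched in level was compared here. Whether other abundant genes share this difference was not tested. The median Florentine low KPY level of these genes was 125 CPM and the median Meunna high KPY level 237 CPM, on library sizes of each trial. Transcripts were predicted separately in each trial, which was sampled in another year, so trial, season and transcript length cannot be told apart here.

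The lists hold further genes beyond the 314, each taken as its transcript with the highest mean CPM. The counts below are of whole lists. They include the described genes, which the rule chose for being lower in low KPY. These are 27 of 35 actin and vesicle genes and 34 of 46 microtubule genes. They are also 7 of 9 water and proton genes, 9 of 16 receptor and signalling genes, and 8 of 34 cellulose genes in Meunna. Listed genes were matched through the parts used here of the study's tables of called transcripts. Some of these are sorted with the largest falls first. Most listed genes had thus passed a test on these samples before. The counts are not independent evidence of direction, and describe lists chosen with earlier results of these data known. On the xylan list 36 of 44 genes were called lower in low KPY in Florentine and 42 of 44 in Meunna, and 1 was called higher in each trial. On the cellulose list 28 of 31 genes were called lower in Florentine and 32 of 34 in Meunna, and on the lignin list 22 of 23 and 21 of 25, with 1 called higher in Florentine. All 16 genes of methyl donor supply measured in Florentine and all 17 in Meunna were called lower. Of the microtubule list 44 of 46 genes were called lower in each trial, of the regulators 25 and 26 of 28, with 1 called higher in Florentine, and of the wall matrix 25 and 26 of 26. Of the actin and vesicle list 31 of 35 genes were called lower in Florentine and 30 in Meunna, with 1 called higher in each trial. Of the water and proton list 8 of 9 were called lower in each trial. Of the receptor and signalling list 12 of 16 were called lower in each trial, the smallest share of the 10 lists in both, and 1 was called higher in Florentine and 2 in Meunna. Over all transcripts 20% were called lower in Florentine and 16.9% in Meunna. The genes left out by name include 4 of the cellulose list, 9 of the lignin list, 4 of the wall matrix and 1 of the microtubule list.

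The described genes were spread over the reference genome's identifiers. Each identifier carries a letter, A to L in the tables, and the share of single-transcript genes that belong to the 314 ran from 1.85% (letter C) to 3.26% (letter G) for letters A to K, and was 0.899% for letter L. No more than 42 of the 314 carried a single letter.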

How the data were processed

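RNA of cambial scrapings was measured in 12 libraries. Per the labels and the methods of the study, the authors aligned reads pooled within a trial by TopHat and Bowtie on the genome of *E. grandis*, let Cufflinks build transcripts from them, and took counts per bulk with BEDtools. The deposited values are whole-number read counts, 1 table per trial (23917 transcripts in Florentine and 26279 in Meunna), without normalization, and every transcript reaches 1 CPM in at least 3 libraries. To keep out reads with several possible sources they relied on TopHat's default limit on hits. No version of that genome is named in the sources used here. Trial tables carry the same library names, and each was assigned by its trial. A library holds RNA from several trees. The tests set the class difference against the spread between these bulks, and the spread between single trees was not measured.

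The software was R 4.3.3, edgeR 4.0.16 and DESeq2 1.42.0. CPM use TMM library sizes of each trial. edgeR's quasi-likelihood test compared the KPY classes within each trial, and tested the trial by KPY interaction in 1 fit over all 12 libraries, with Benjamini-Hochberg adjustment at 0.05; the standard error is the size of the log2 change divided by the square root of F. Scripts were tested on simulated data. No pair of replicate libraries agreed within counting noise: 48.3% to 75.6% of transcripts differed beyond it. At these depths the replicate spread, and not counting error, limits the precision of the genes described.

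The members and the lists of roles and markers were chosen with earlier results of these data known. Arabidopsis matches were read from the study's supplementary tables, of which parts were used, and only names were taken from them. Named genes are up to 5 members of each list with the highest mean CPM, the 5 with the lowest L in each trial, the 5 with the smallest interaction p and those nearest to the limits. Alternatives were DESeq2, edgeR's exact test, RLE and upper-quartile factors, library sizes alone, filterByExpr, a pseudocount of 1, minimums of 50 and 200 CPM, summed transcripts, the replicate number as a block, TMM within each trial, and leaving out each library in turn. Leaving out low KPY library 2 of both trials, DESeq2 without single libraries, and the median L and the lowest library under other scalings were added after seeing the data. No sequence was used here, and 1 gene that this rule names is not reported here. Columns of the authors' own comparisons were not used.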

Additional observations from a re-analysis of the deposited data

How the results depend on the processing

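The number of genes that met the rule was 314, and it stayed within 1.5 times of that under RLE factors, upper-quartile factors, a pseudocount of 1, a minimum of 50 CPM and summed transcripts. It was 126 with library sizes alone and 185 with a minimum of 200 CPM, both subsets of the 314. Leaving out 1 library gave 159 to 384 genes, the lowest without Florentine low KPY library 2 and the highest without Florentine low KPY library 1. Without low KPY library 2 of both trials it was 156.

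Of the 314 genes, edgeR's exact test, RLE, library sizes alone and filterByExpr called 295 to 313 in Florentine and 307 to 312 in Meunna, and DESeq2 called 314 and 313. The range without 1 library was 0 to 314 in Florentine and 297 to 309 in Meunna. The Florentine count was 86 without low KPY library 3 and 0 without high KPY library 1 or high KPY library 3, where adjusted p of the 314 genes ran from 0.0575 to 0.177 and from 0.0512 to 0.236. DESeq2 called 313 without each of these libraries, and the cause was not tested. Among the 314 genes no interaction was called under any alternative run, the smallest and largest count without 1 library being 0 and 0. Over all genes DESeq2 called 65, and TMM within each trial and leaving out Florentine low KPY library 2 called 1 each.

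Of 64 genes picked by the rule for named genes, 1 of which is not reported here, none changed direction in either trial under the alternatives run. Their calls were less stable in Florentine. There all 64 were no longer called by edgeR without high KPY library 1 or without high KPY library 3, and 44 without low KPY library 3. The same replicate numbers occur in both classes, and over all transcripts the correlations of the deviations of same-numbered libraries were -0.07, 0.27 and -0.01 in Florentine and -0.08, 0.05 and 0.13 in Meunna, over 0.1 only for libraries 2 in Florentine and 3 in Meunna, so the numbers were not taken to pair the libraries. With the replicate block 311 of the genes were called in Florentine, 309 in Meunna and 0 in the interaction. All 314 genes were lowest in Florentine low KPY library 2 under RLE and with library sizes alone as well. The median SD between replicates moved by less than 0.01 with a pseudocount of 1. Promoter motifs were not run, because no reference sequence was used here.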
